A study of Sus scrofa with 11 samples.

Results

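Genes of the cell cycle and of DNA replication were followed in porcine coronary arteries kept in a bioreactor, with or without a stent, and in native vessels. The set is a list of 40 gene symbols, chosen by function and with earlier results of these data known. It was matched to the Ensembl pig gene identifiers of the deposited count tables. Of the 40 symbols, 36 were found among 25880 gene identifiers, and all 36 had enough counts to be tested. PCNA, RRM2, CCNA2 and AURKA found no identifier by symbol and were not analysed here. The 36 genes comprised 9 of DNA replication and nucleotide supply, 5 of control of the G1/S transition and S phase, and 22 of mitosis.

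The 11 libraries of bulk RNA came from 5 groups. Stented static vessels (2 libraries) were stented and cultured without flow. Stented high-flow vessels (3 libraries) were stented and cultured under the flow that the labels mark as stronger. High-flow vessels (2 libraries) had the same flow mark and no stent, low-flow vessels (2 libraries) had the weaker flow mark and no stent, and native vessels (2 libraries) were not cultured. The labels give tissue, stent and flow, and no breed, sex, age, drug or flow rate. Some labels also hold a number followed by the letter d, with no meaning given. It is 3 for stented static replicates 1 and 2, and 7 for stented high-flow replicate 3. All 4 cultured groups share the bioreactor, so stent and flow could be compared within culture, while each comparison with native vessels holds culture as well. If the d number is a length of culture, stented high-flow against stented static vessels mixes time with flow in part. Nothing in the labels ties the libraries to separate animals. The p-values therefore measure only how far these samples spread, and that spread may be technical.

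A dividing cell first commits to a new cycle through D-type and E-type cyclins and E2F factors, then copies its DNA with the MCM helicase loaded at replication origins, and then separates the copies under the control of CDK1, cyclin B and Polo-like and Aurora kinases. Replication genes are transcribed mostly at the G1/S boundary and mitosis genes mostly in G2 and M phase, so their transcripts are widely used as marks of dividing cells. Smooth muscle cells of a healthy artery wall divide rarely, and their division after stenting or other injury is known as a part of neointimal growth. In bulk RNA, fewer cells of a type and less RNA per cell cannot be told apart, nor can more dividing cells and more transcript in each.

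Library totals were 13.5 to 26.8 in units of 1e6 counts, and 3 counts in 1 library corresponded to 0.112 to 0.222 counts per 1e6 (CPM). Replicate libraries correlated at 0.932 to 0.980 (Pearson's r of log2 CPM across genes, which are not independent replicates). Levels below are CPM on TMM-scaled library sizes, and changes are log2 fold changes ± standard error of 1 joint edgeR fit of the 5 groups. A gene was called at an adjusted p below 0.05 in the quasi-likelihood test of edgeR, Benjamini-Hochberg adjusted over 15348 genes tested. The 4 comparisons with native vessels share the same 2 native libraries, so they are not independent of each other. Coordinates are RefSeq positions in Sscrofa11.1, and levels are compared between libraries and not between genes.

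Most of these genes rose in stented high-flow vessels, and few passed the test in the other cultured groups. Against native, 20 of the 36 genes rose and 0 fell in stented high-flow vessels, 5 rose and 0 fell in high-flow vessels, 1 rose and 1 fell in low-flow vessels, and 0 rose and 1 fell in stented static vessels. Over all genes tested, 10.4% were called higher in stented high-flow, 5.94% in high-flow, 5.03% in low-flow and 5.54% in stented static vessels, and 7.38% and 7.19% were called lower in low-flow and stented static vessels. The median log2 fold change of the 36 genes was 1.67 in stented high-flow, 1.33 in high-flow, 1.16 in low-flow and 0.37 in stented static vessels, against 0.06, 0.02, -0.00 and 0.02 over all genes tested.

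**Figure D1:**
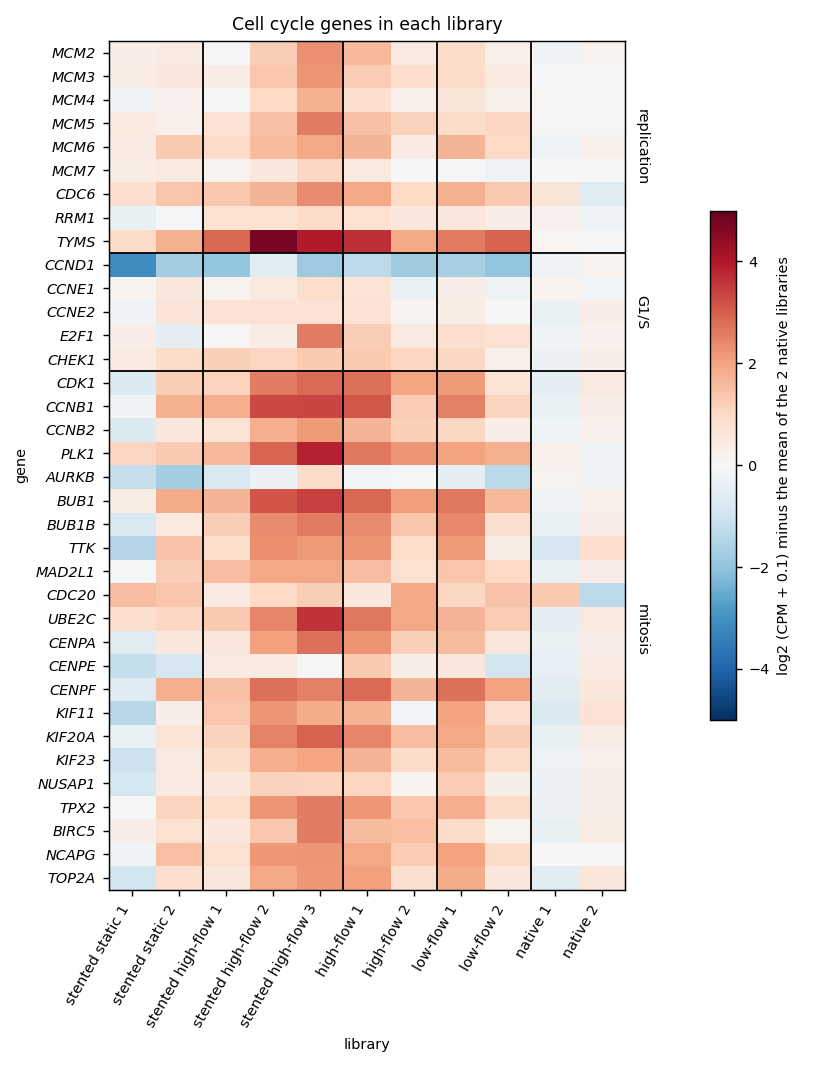
Level of the 36 genes (down the page, grouped as replication, G1/S and mitosis) in each of the 11 libraries (across), as log2 of CPM + 0.1 minus the mean of the 2 native libraries. Red marks a higher and blue a lower level than native: TYMS is the darkest red in 5 of the 7 flow libraries, CCND1 is blue in all 9 cultured libraries, and stented static replicate 1 is the palest or bluest of the cultured libraries for most mitosis genes.

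Stented high-flow against native vessels set stent, high flow and culture together against the uncultured artery. Of the 9 replication genes 6 rose, of the 22 mitosis genes 14 rose, and of the 5 G1/S genes 0 were called, with 1 higher and 1 lower at an unadjusted p below 0.05 and also 1 higher and 1 lower by DESeq2. The shares of all genes called in this comparison were 10.4% higher and 13.9% lower. At an unadjusted p below 0.05, 2698 of 15348 genes tested were higher and 3006 lower. The 3 stented high-flow libraries lay above both native libraries for 28 of 36 genes and below both for 1, CCND1, while 25.4% and 27.6% of all genes tested did so. DESeq2 called 24 of the 36 higher and 1 lower, against 2066 and 2494 of 15348 genes tested. Of the 36 fold changes 35 were positive, against 52.4% of all genes.

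Among the replication genes, TYMS (chromosome 6, 105642730 to 105660279) moved most. It encodes thymidylate synthase, which makes the thymidine nucleotide that only DNA needs. TYMS stood at 17.7, 65.7 and 37.5 CPM in stented high-flow replicates 1 to 3, against 2.47 and 2.19 CPM in native replicates 1 and 2. All 3 stented high-flow libraries exceeded both native ones, and they differed from each other more than the native libraries did. The log2 fold change was 4.11 ± 0.69 (edgeR adjusted p = 0.00212), and the authors' deposited table lists 4.11 for the same gene. Their list for this comparison holds 4 of the 36 genes among 1117.

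The MCM2 to MCM7 proteins form the ring-shaped helicase that opens DNA at replication forks, and 3 of these 6 genes rose. MCM5, which RefSeq places on no chromosome of this assembly, had 17.5, 29.1 and 64.6 CPM in stented high-flow replicates 1 to 3, against 10.9 and 10.2 CPM in native (log2 fold change 1.81 ± 0.47, edgeR adjusted p = 0.0178). MCM6 (chromosome 15, 15923638 to 15978587) had 31.6, 50.3 and 64.5 CPM in stented high-flow, against 14.2 and 19.8 CPM in native libraries (1.52 ± 0.47, edgeR adjusted p = 0.0384). MCM3 (chromosome 7, 46084648 to 46104425) had 14.1, 27.9 and 50.7 CPM in stented high-flow, against 10.8 and 11 CPM in native libraries (1.51 ± 0.46, edgeR adjusted p = 0.0358). Each of the 3 genes was lowest in replicate 1 and highest in replicate 3 of the stented high-flow group, and the groups did not overlap. MCM2 at 1.45 ± 0.58, MCM4 at 1.10 ± 0.46 and MCM7 at 0.63 ± 0.29 log2 were not called (edgeR adjusted p = 0.0949, 0.107 and 0.135). MCM4 and MCM7 overlap other RefSeq genes, and since no source used here gives the strand of counting, reads of the overlapping parts cannot be told apart.

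CDC6 and RRM1 were the other replication genes that rose. CDC6 (chromosome 12, 22101281 to 22118441), which loads the MCM ring onto origins, had 2.51, 3.20 and 5.15 CPM in stented high-flow, against 1.43 and 0.575 CPM in native libraries (log2 fold change 1.86 ± 0.59, edgeR adjusted p = 0.0411). Its counts ran from 10 to 110 per library, so it is among the less precisely measured genes of the set. RRM1 (chromosome 9, 6026151 to 6065211), the large subunit of the ribonucleotide reductase that makes deoxynucleotides, had 70.9, 71.2 and 81.4 CPM in stented high-flow, against 48.8 and 36.6 CPM in native libraries (0.80 ± 0.24, edgeR adjusted p = 0.0324). RRM1 averaged 74.5 ± 5.97 CPM in stented high-flow (SD, n = 3), against 42.7 ± 8.66 CPM in native libraries (SD, n = 2). Relative to the mean, that stented high-flow SD of 8.01% was the smallest of the 9 replication genes, the others lying between 31.3% and 71.7%.

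The mitosis genes that moved most encode regulators of entry into and exit from mitosis. PLK1 (chromosome 3, 22537814 to 22550901), the Polo-like kinase that drives mitotic entry and spindle assembly, had 10.2, 24.6 and 47.2 CPM in stented high-flow replicates 1 to 3, against 3.84 and 2.70 CPM in native (log2 fold change 3.06 ± 0.58, edgeR adjusted p = 0.00380). CCNB1 (chromosome 16, 47338239 to 47348385), the cyclin B that activates CDK1, had 12.8, 35.8 and 36.7 CPM in stented high-flow, against 2.80 and 4.43 CPM in native libraries (2.97 ± 0.81, edgeR adjusted p = 0.0221). CDK1 itself (chromosome 14, 64233945 to 64255290), the kinase of mitotic entry, had 4.81, 13.1 and 15.9 CPM in stented high-flow, against 1.56 and 2.93 CPM in native libraries (2.32 ± 0.75, edgeR adjusted p = 0.0442). For all 3 genes stented high-flow replicate 1 was the lowest of its group and still above both native libraries. Among the genes that rose, PLK1 overlaps ERN2, KIF20A overlaps CDC23, NCAPG overlaps DCAF16 and LCORL, CDK1 overlaps a pseudogene, and CENPF and KIF23 each overlap 1 non-coding RNA gene in RefSeq, so shared reads cannot be told apart for these either.

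BUB1, UBE2C and KIF20A completed the 5 mitosis genes of largest change. BUB1 (chromosome 3, 45585188 to 45623240), a kinetochore kinase of the checkpoint, had 6.67, 18.2 and 22.3 CPM in stented high-flow, against 1.63 and 2.42 CPM in native libraries (log2 fold change 2.96 ± 0.67, edgeR adjusted p = 0.00988). UBE2C (chromosome 17, 48018403 to 48021542), the ubiquitin-conjugating enzyme of the anaphase-promoting complex, had 12.7, 28.0 and 63.3 CPM in stented high-flow, against 3.58 and 7.19 CPM in native libraries (2.68 ± 0.62, edgeR adjusted p = 0.0106). KIF20A (chromosome 2, 140202316 to 140213144), a kinesin of the midzone needed for cytokinesis, had 13, 32.4 and 44.2 CPM in stented high-flow, against 4.43 and 7.36 CPM in native libraries (2.34 ± 0.58, edgeR adjusted p = 0.0141). In each case the order of the stented high-flow libraries was the one seen for PLK1, and neither native library reached the lowest of them.

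The other 8 mitosis genes that rose had log2 fold changes between 1.63 and 2.27. They were the checkpoint genes BUB1B (2.16 ± 0.65) and MAD2L1 (1.77 ± 0.46), the cyclin CCNB2 (1.66 ± 0.53), the kinetochore protein CENPF (2.27 ± 0.72), the spindle assembly factor TPX2 (2.02 ± 0.56), the midzone kinesin KIF23 (1.63 ± 0.51), the condensin subunit NCAPG (1.88 ± 0.62) and the chromosomal passenger BIRC5 (1.69 ± 0.56). BIRC5, also known as survivin, had 7.03, 12.4 and 28.7 CPM in stented high-flow libraries, against 3.65 and 6.27 CPM in native libraries. MAD2L1, which holds anaphase back until chromosomes are attached, was more even, at 12.7, 16.3 and 16.7 CPM in stented high-flow libraries, against 3.39 and 5.52 CPM in native libraries.

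The remaining 8 mitosis genes were not called. TOP2A (chromosome 12, 22001300 to 22028452), the topoisomerase that untangles sister chromatids and a common proliferation marker, had 24.9, 63.7 and 75.5 CPM in stented high-flow, against 11.2 and 25.3 CPM in native libraries. Stented high-flow replicate 1 lay just under native replicate 2, so the groups overlapped (log2 fold change 1.59 ± 0.69, edgeR adjusted p = 0.118). AURKB, the Aurora kinase of the chromosomal passenger complex, had 6.17, 8.64 and 20.1 CPM in stented high-flow, against 12 and 9.43 CPM in native libraries (0.12 ± 0.49, edgeR adjusted p = 0.881). CENPE, a kinesin that carries chromosomes to the spindle equator, had 26.8, 27.2 and 19.1 CPM in stented high-flow, against 14.8 and 26.5 CPM in native libraries (0.24 ± 0.46, edgeR adjusted p = 0.743). CENPA, KIF11, NUSAP1 and TTK had positive fold changes of 0.93 to 2.06 log2 that missed the threshold. CDC20, an activator of the anaphase-promoting complex, had only 1 to 27 counts per library, and nothing can be read from its 0.52 ± 0.89 log2.

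The count of 20 depended on single libraries. It was 2 without native replicate 1 (PLK1 and TYMS), 2 without native replicate 2 (TYMS and UBE2C), 24 without stented high-flow replicate 1, 8 without replicate 2 and 8 without replicate 3. Without replicate 2 the 8 comprised 7 genes higher and 1, CCND1, lower. The shares of all genes called were 26.7%, 16.1% and 20.6% without stented high-flow replicates 1, 2 and 3, against 24.3% in the joint fit. Leaving out either native library left 1 in that group. There that share fell as well, and the share of the set called no longer exceeded it. TYMS was the only gene of the set called in all 5 of these fits, with an edgeR adjusted p of 0.00108 to 0.0307. The 20 log2 fold changes kept their sign in all 5 fits, with RRM1 the smallest at 0.65 to 1.02 and TYMS the largest at 3.57 to 4.47.

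**Figure D2:**
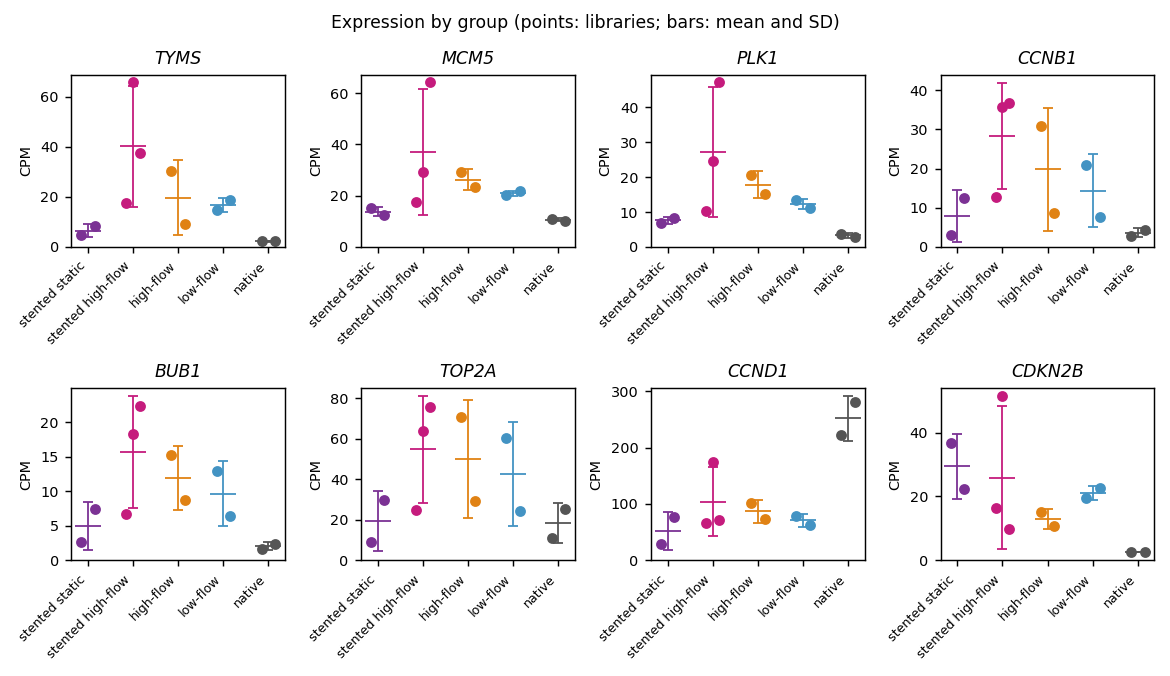
Levels in CPM (vertical axes, starting at 0) of TYMS, MCM5, PLK1, CCNB1, BUB1, TOP2A and CCND1, and of the inhibitor CDKN2B, in each library of the 5 groups, one point per library. TYMS reaches 65.7 CPM in stented high-flow replicate 2 and stays at or under 2.47 CPM in native libraries, CCND1 is highest in the 2 native libraries at 223 and 281 CPM, and CDKN2B is lowest there at 2.60 and 2.70 CPM.

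High-flow against native vessels, with no stent in either group, gave 5 genes higher and 0 lower, where 5.94% of all genes were called higher and 8.86% lower. The fold change was positive for 34 of 36 genes, against 51.1% of all genes. The 5 were TYMS and the mitosis genes PLK1, BUB1, UBE2C and KIF20A. TYMS had 30.3 and 9.09 CPM in high-flow, against 2.47 and 2.19 CPM in native libraries (log2 fold change 3.08 ± 0.69, edgeR adjusted p = 0.0140). BUB1 had 15.2 and 8.67 CPM in high-flow, against 1.63 and 2.42 CPM in native libraries (2.56 ± 0.69, edgeR adjusted p = 0.0312). PLK1 had 20.6 and 15.1 CPM in high-flow, against 3.84 and 2.70 CPM in native libraries (2.45 ± 0.59, edgeR adjusted p = 0.0188). In all 5 genes the lower high-flow library, replicate 2, stayed above both native libraries.

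UBE2C had 31.8 and 19.6 CPM in high-flow, against 3.58 and 7.19 CPM in native libraries (2.25 ± 0.64, edgeR adjusted p = 0.0374). KIF20A had 31.5 and 16.6 CPM in high-flow, against 4.43 and 7.36 CPM in native libraries (2.03 ± 0.60, edgeR adjusted p = 0.0437). Many more genes came near the threshold without passing it. At an unadjusted p below 0.05, 22 genes were higher and 1 lower, against 2118 and 2538 of 15348 genes tested. DESeq2 called 10 higher and 1 lower, against 1376 and 1943 of all genes tested. Both high-flow libraries lay above both native ones for 28 of 36 genes and below for 1, where 31.3% and 31.5% of all genes tested did so. CCNB1 at 2.45 ± 0.83, CDK1 at 2.40 ± 0.79 and TOP2A at 1.45 ± 0.73 log2 were not called (edgeR adjusted p = 0.0703, 0.0640 and 0.205). No gene was called without native replicate 1, native replicate 2 or high-flow replicate 1, and 2 were called without high-flow replicate 2 (TYMS and PLK1). A fit of only the high-flow and native libraries called 17 of the 36 and 21.4% of all genes it tested, against 14.8% of all genes in the joint fit.

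Low-flow against native vessels gave 1 gene higher and 1 lower, where 5.03% and 7.38% of all genes were called. TYMS had 14.7 and 18.9 CPM in low-flow, against 2.47 and 2.19 CPM in native libraries, and rose by 2.85 ± 0.68 log2 (edgeR adjusted p = 0.0223). CCND1 fell to 78.9 and 63.0 CPM in low-flow libraries, against 223 and 281 CPM in native libraries (-1.83 ± 0.54, edgeR adjusted p = 0.0489). Neither gene kept its call without any 1 of the 4 libraries, with edgeR adjusted p-values of 0.0791 to 0.140 for TYMS and 0.127 to 0.243 for CCND1. Both low-flow libraries lay above both native ones for 25 of 36 genes and below for 3, against 33.5% and 34.4% of all genes, and 32 of 36 fold changes were positive, against 49.9% of all genes.

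Of the mitosis genes, PLK1 came nearest, with 13.4 and 11.2 CPM in low-flow, against 3.84 and 2.70 CPM in native libraries (1.91 ± 0.58, edgeR adjusted p = 0.0533). BUB1 had 13 and 6.36 CPM in low-flow, against 1.63 and 2.42 CPM in native libraries (2.25 ± 0.69, edgeR adjusted p = 0.0549). CCNB1 had 20.9 and 7.76 CPM in low-flow, against 2.80 and 4.43 CPM in native libraries (1.98 ± 0.82, edgeR adjusted p = 0.137). In each, low-flow replicate 1 was the higher library and replicate 2 still exceeded both native ones. At an unadjusted p below 0.05, 14 genes of the set were higher and 1 lower, against 2020 and 2390 of 15348 genes tested. DESeq2 called 6 higher and 1 lower, against 1198 and 1705 of all genes tested. A fit of only these groups called 16 of the 36 and 33.5% of all genes it tested, against 12.4% in the joint fit.

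Stented static against native vessels gave 0 genes higher and 1 lower, where 5.54% and 7.19% of all genes were called. At an unadjusted p below 0.05, 1 gene was higher and 2 were lower, against 2154 and 2364 of 15348 genes tested. DESeq2 called 0 higher and 1 lower, against 1373 and 1716 of all genes tested. The fold change was positive for 27 of 36 genes, against 51.1% of all genes. Both stented static libraries lay above both native ones for 12 genes and below for 3, against 28.9% and 29.8% of all genes tested. The gene that fell was CCND1 (chromosome 2, 3621242 to 3633380), cyclin D1, which links growth signals to CDK4 and CDK6 in G1. CCND1 had 28.8 and 75.9 CPM in stented static, against 223 and 281 CPM in native libraries (-2.27 ± 0.55, edgeR adjusted p = 0.0229). Without either native library or stented static replicate 1 it was not called (edgeR adjusted p up to 0.128), and its log2 fold change ranged from -3.13 to -1.71. TYMS had 4.66 and 8.27 CPM in stented static, against 2.47 and 2.19 CPM in native libraries (1.47 ± 0.67, edgeR adjusted p = 0.169). CCNB1 had 3.08 and 12.5 CPM in stented static libraries, and TOP2A had 8.81 and 29.8 CPM, so replicate 1 fell within the native values or below them and replicate 2 exceeded them.

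Cyclin D1 was lower than in both native libraries in all 9 cultured libraries. CCND1 had 65.8, 175 and 70.6 CPM in stented high-flow libraries (-1.28 ± 0.47 against native, edgeR adjusted p = 0.0700) and 101 and 72.6 CPM in high-flow libraries (-1.53 ± 0.53, edgeR adjusted p = 0.0776). Its direction was thus opposite to that of most other genes of the set in the same libraries. The other G1/S genes were not called against native in any group. CCNE1 and CCNE2, the E-type cyclins that activate CDK2, had log2 fold changes of 0.07 to 0.55 and 0.15 to 0.70 over the 4 comparisons, and CHEK1, the kinase of the replication checkpoint, of 0.66 to 1.21. E2F1, a transcription factor of S phase genes and named here after its values were seen, had 15.7 CPM in stented high-flow replicate 3 and 1.82 to 6.05 CPM in the other 10 libraries.

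**Figure D3:**
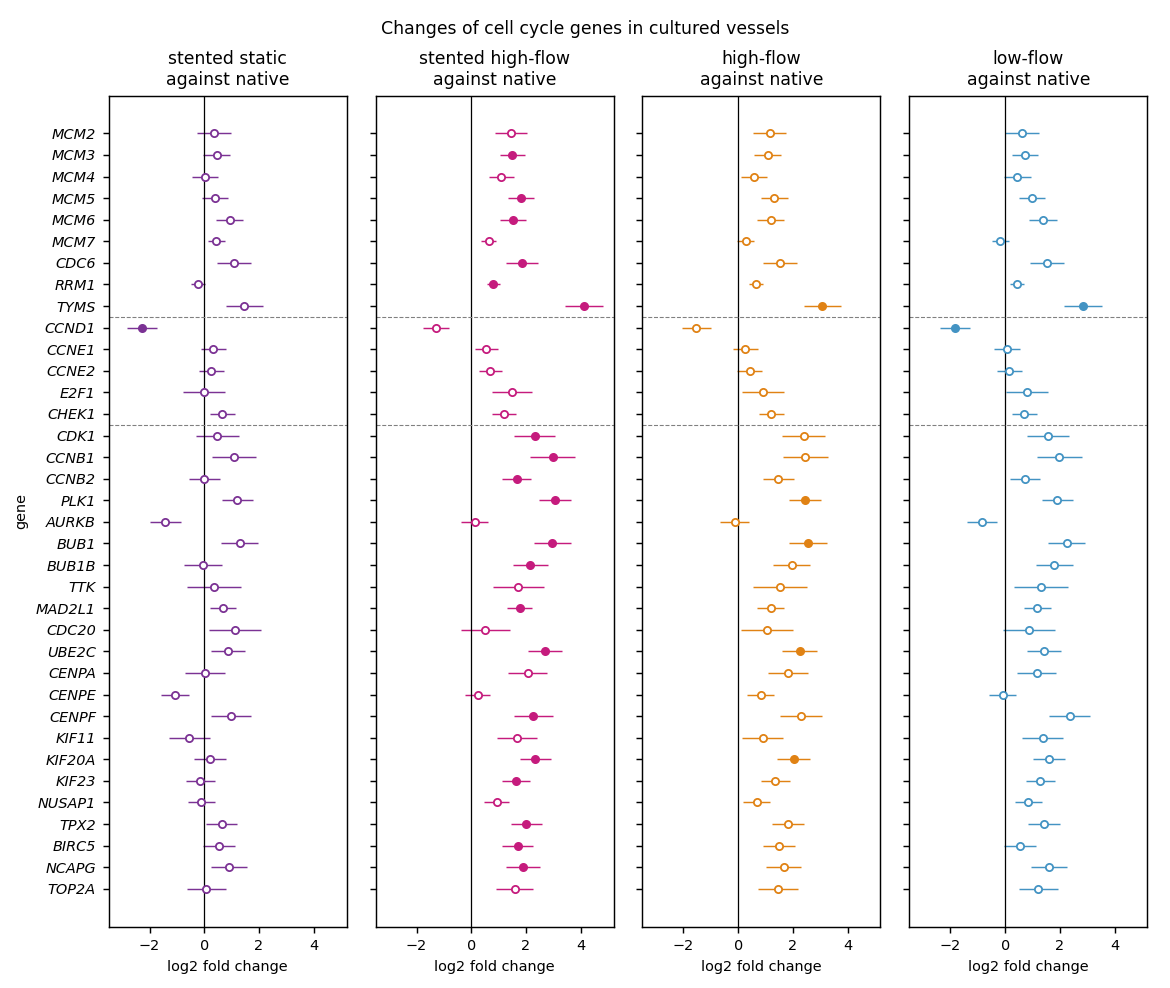
Log2 fold change of each gene against native (horizontal axis) in the 4 cultured groups, with bars of 1 standard error and filled points where edgeR's adjusted p was below 0.05. Filled points are 20 in stented high-flow, 5 in high-flow, 2 in low-flow and 1 in stented static vessels, and CCND1 lies left of 0 in all 4.

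Stented high-flow against stented static vessels kept the stent constant and asked what flow changed. Of the 36 genes, 1 rose and 0 fell, where 1.18% of all genes were called higher. RRM1 had 70.9, 71.2 and 81.4 CPM in stented high-flow, against 32.3 and 40.8 CPM in stented static libraries (1.03 ± 0.24, edgeR adjusted p = 0.0485). The groups did not overlap, but the call was lost when any 1 of the 5 libraries was left out (edgeR adjusted p = 0.0585 to 0.320). TYMS had 17.7, 65.7 and 37.5 CPM in stented high-flow, against 4.66 and 8.27 CPM in stented static libraries, and missed the threshold (2.65 ± 0.63, edgeR adjusted p = 0.0509).

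The direction was shared by nearly the whole set in that comparison. The fold change was positive for 35 of 36 genes, against 50.9% of all genes, with CDC20 the exception, and the median was 1.34 log2, against 0.01 over all genes. At an unadjusted p below 0.05, 22 were higher and 0 lower, against 1303 and 1634 of 15348 genes tested. DESeq2 called 12 higher and 0 lower, against 593 and 775 of all genes tested. All 3 stented high-flow libraries exceeded both stented static ones for 18 genes and lay below them for 1, against 14.4% and 15.7% of all genes. Among mitosis genes KIF20A was nearest to the threshold, with 13, 32.4 and 44.2 CPM in stented high-flow, against 4.51 and 9.25 CPM in stented static libraries (2.13 ± 0.57, edgeR adjusted p = 0.0722). CENPE had 26.8, 27.2 and 19.1 CPM in stented high-flow, against 8.61 and 11 CPM in stented static libraries (1.31 ± 0.48, edgeR adjusted p = 0.168). Without stented high-flow replicate 1 the count of called genes was 5, where 2.78% of all genes were called in either direction. Without stented high-flow replicates 2 or 3 the count was 0, where 1.14% and 2.2% of all genes were called. Leaving out either stented static library left 1 in that group, so no count is read from those fits.

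The labels add a d suffix of 3 to both stented static libraries and of 7 to stented high-flow replicate 3, and no source used here says what it stands for. If it marks different lengths of culture, flow and time cannot be told apart in part of that comparison. Stented high-flow replicate 3 was the highest of the 11 libraries for 26 of the 36 genes, comprising 8 of 9 replication, 16 of 22 mitosis and 2 of 5 G1/S genes. Without it, 8 genes were called against native, as given above, and 0 against stented static vessels. The shares of all genes called without it were 20.6% and 2.2%, against 24.3% and 2.85% in the joint fit.

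Low-flow against high-flow vessels, both without a stent, called 0 of 36 genes, where 0.104% of all genes were called (0.0261% higher and 0.0782% lower). At an unadjusted p below 0.05 there were 0 higher and 0 lower, against 641 and 595 of 15348 genes tested. DESeq2 called 0, against 57 higher and 48 lower of all genes tested. The fold change was positive for 5 and negative for 31 of 36 genes, against 49.7% positive over all genes, with a median of -0.28 log2, against -0.00 over all genes. Both low-flow libraries lay below both high-flow libraries for 9 genes and above them for 0, against 22.3% and 22.9% of all genes tested. CENPE had the smallest p, with 28.4 and 10.4 CPM in low-flow, against 49.0 and 24.2 CPM in high-flow libraries (-0.91 ± 0.50, edgeR adjusted p = 0.670). BIRC5 followed, with 9.12 and 5.35 CPM in low-flow, against 14.4 and 13.8 CPM in high-flow libraries (-0.96 ± 0.58, edgeR adjusted p = 0.691). The replicates of each group differed by more than the groups did for CENPE, while for BIRC5 the groups did not overlap. MCM7 had 45 and 40.2 CPM in low-flow, against 66.8 and 49.0 CPM in high-flow libraries (-0.44 ± 0.31, edgeR adjusted p = 0.727).

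Stented high-flow against high-flow vessels kept the flow mark constant and asked what the stent changed. None of the 36 genes was called, where 0.0% of all genes were called. At an unadjusted p below 0.05 there were 0 higher and 0 lower, against 167 and 300 of 15348 genes tested. DESeq2 called 0, against 2 higher and 4 lower of all genes tested. TYMS had 17.7, 65.7 and 37.5 CPM in stented high-flow, against 30.3 and 9.09 CPM in high-flow libraries (1.03 ± 0.58, edgeR adjusted p = 1). MAD2L1 had 12.7, 16.3 and 16.7 CPM in stented high-flow, against 12.9 and 7.39 CPM in high-flow libraries (0.59 ± 0.43), and CENPE had 26.8, 27.2 and 19.1 CPM, against 49.0 and 24.2 CPM (-0.59 ± 0.45). The ranges of the groups overlapped for all 36 genes, since the 3 stented libraries neither all exceeded nor all fell below both unstented ones, as they did for 5.49% and 6.97% of all genes. The median was 0.28 log2, against 0.03 over all genes, and 31 of 36 fold changes were positive, against 53.6% of all genes. These 2 groups stand in different count tables, so table and stent cannot be told apart here. A difference in the number of calls against native, 20 and 5, is thus not a difference shown between the 2 groups.

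Replication genes and mitosis genes were then set against each other within libraries. The mean log2 CPM of the 22 mitosis genes was 1.84 and 3.03 in the stented static libraries, 3.15, 4.20 and 4.50 in the stented high-flow libraries, 4.17 and 3.39 in the high-flow libraries and 3.88 and 2.96 in the low-flow libraries, against 1.94 and 2.46 in the native libraries. The mean log2 CPM of the 9 replication genes was 3.79 and 4.14 in the stented static libraries, 4.22, 5.03 and 5.56 in the stented high-flow libraries, 4.96 and 4.17 in the high-flow libraries and 4.54 and 4.25 in the low-flow libraries, against 3.50 and 3.37 in the native libraries. Replication genes were thus above both native libraries in all 9 cultured libraries, and mitosis genes in 8 of the 9, the exception being stented static replicate 1. These means weight each gene equally, are descriptions and carry no test.

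The median log2 fold change of mitosis genes was larger than that of replication genes in each flow comparison with native. It was 1.83 for mitosis and 1.51 for replication genes in stented high-flow vessels, 1.59 against 1.14 in high-flow vessels, and 1.34 against 0.72 in low-flow vessels. In stented static vessels it was 0.41 and 0.43, and in stented high-flow against stented static 1.60 and 1.06. These medians differed by 0.32 log2 in stented high-flow, 0.45 in high-flow, 0.61 in low-flow and -0.01 in stented static vessels against native, and by 0.54 in stented high-flow against stented static. By the mean over mitosis genes minus the mean over replication genes in each library, the differences against native were 0.25 log2 in stented high-flow, 0.45 in high-flow, 0.25 in low-flow and -0.30 in stented static vessels, and 0.55 in stented high-flow against stented static. The pooled within-group SD of that library value was 0.37 log2, so the stented high-flow, low-flow and stented static differences from native were smaller than it. The library values were -1.96 and -1.11 for the stented static, -1.07, -0.83 and -1.06 for the stented high-flow, -0.79 and -0.78 for the high-flow, and -0.66 and -1.30 for the low-flow libraries, against -1.56 and -0.90 for the native libraries. Of the 9 cultured values 4 lay within the native range, 4 above it and 1 below it. The 2 high-flow libraries both lay above both native ones, and in the other 3 cultured groups the values overlapped the native ones. With 1 library left out, the difference of medians ranged from -1.10 (without stented static replicate 2) to 0.38 (without native replicate 2) in stented static vessels, where single libraries set its direction. Without native replicate 2 it was 0.90 in stented high-flow, 1.07 in high-flow and 0.93 log2 in low-flow vessels. It was 0.72 without stented high-flow replicate 3 in stented high-flow vessels, 0.70 without high-flow replicate 1 in high-flow vessels, and 0.32 without native replicate 1 in low-flow vessels. In stented high-flow against stented static vessels it was 0.24 without stented static replicate 1 and 1.39 without stented static replicate 2.

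**Figure D4:**
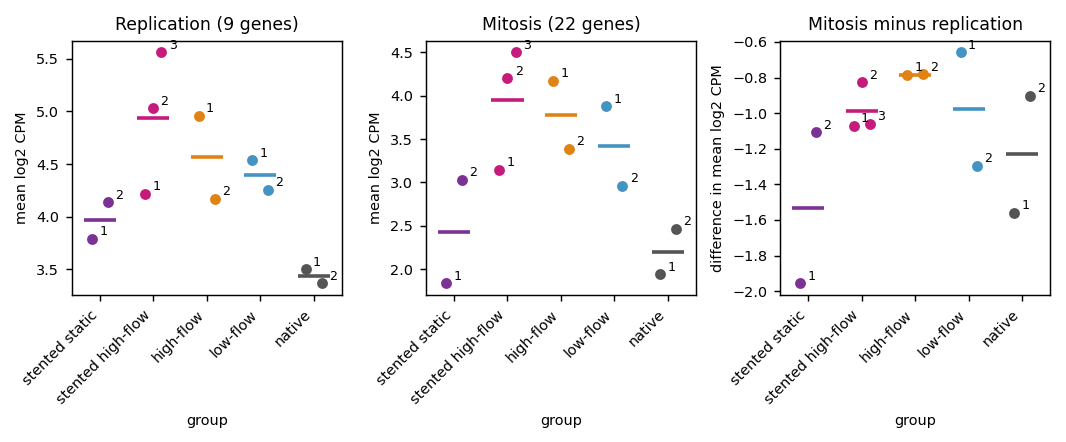
Mean log2 CPM of the 9 replication genes (left), of the 22 mitosis genes (middle) and mitosis minus replication (right) in the 5 groups. Each point is 1 library marked with its replicate number, and lines give the group means. Native libraries lie lowest for replication genes, stented high-flow replicate 3 is highest for both classes at 5.56 (replication) and 4.50 (mitosis), and stented static replicate 1 is lowest for mitosis genes at 1.84.

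Replicates of 1 group differed across nearly the whole set at once. Stented static replicate 2 exceeded replicate 1 for 32 of 36 genes, and the median of replicate 1 minus replicate 2 was -0.86 log2. Stented high-flow replicate 1 lay below replicate 2 for 34 genes and below replicate 3 for 34, with median differences of -1.04 and -1.40 log2. High-flow replicate 1 exceeded replicate 2 for 34 genes by a median of 0.80 log2, low-flow replicate 1 exceeded replicate 2 for 33 by 0.69 log2, and native replicate 1 minus replicate 2 had a median of -0.54 log2, with replicate 2 higher for 25. Over all genes tested, the library of lower replicate number was higher for 48.7% to 53.7% of genes. Since the 36 genes moved together from library to library in this way, they are not 36 separate observations of a condition.

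Other genes of the pathway, in lists without members of the set, were read in the same fit. Those lists were also chosen with earlier results of these data known. Of 39 further mitosis genes, 20 rose in stented high-flow, 7 in high-flow, 4 in low-flow and 0 in stented static vessels against native, and 0 fell in any of the 4, by an unadjusted p below 0.05 or DESeq2 as well. These are 51.3% of the 39 in stented high-flow, 17.9% in high-flow, 10.3% in low-flow and 0% in stented static vessels, against 10.4%, 5.94%, 5.03% and 5.54% of all genes called higher in the same comparisons. In stented static vessels 5 of the 39 were higher and 0 lower at an unadjusted p below 0.05, and the same numbers were called by DESeq2. Of all 15348 genes tested there, 2154 were higher and 2364 lower at an unadjusted p below 0.05, so the 5 lay near that share. DESeq2 called 1373 of all genes tested higher and 1716 lower. MYBL2, a transcription factor of the complex that activates G2 and M phase genes, had 29.6, 63.4 and 135 CPM in stented high-flow, 57.7 and 43.9 CPM in high-flow and 34.0 and 24.9 CPM in low-flow libraries, against 8.79 and 6.96 CPM in native libraries. MYBL2 rose by 3.27 ± 0.57 log2 in stented high-flow (edgeR adjusted p = 0.00252), 2.69 ± 0.58 in high-flow (adjusted p = 0.0116) and 1.90 ± 0.56 in low-flow vessels (adjusted p = 0.0495). DLGAP5, a spindle microtubule protein, rose by 2.80 ± 0.59 log2 in stented high-flow (edgeR adjusted p = 0.00705), 2.50 ± 0.61 in high-flow (adjusted p = 0.0212) and 2.67 ± 0.62 in low-flow vessels (adjusted p = 0.0190). CCNF, an F-box protein of the cyclin family, rose by 3.20 ± 0.60 log2 in stented high-flow (edgeR adjusted p = 0.00391), 2.33 ± 0.61 in high-flow (adjusted p = 0.0278) and 2.26 ± 0.61 in low-flow vessels (adjusted p = 0.0348). KIF2C, a microtubule-depolymerising kinesin, rose by 2.63 ± 0.57 log2 in stented high-flow (edgeR adjusted p = 0.00760) and 2.43 ± 0.59 in high-flow vessels (adjusted p = 0.0198). ASPM, a spindle pole protein, rose by 2.15 ± 0.60 log2 in stented high-flow (edgeR adjusted p = 0.0246) and 2.14 ± 0.63 in low-flow vessels (adjusted p = 0.0492). In stented high-flow vessels the 20 became 24, 9 and 10 without stented high-flow replicates 1, 2 and 3. Of all genes, 26.7%, 16.1% and 20.6% were called in either direction in these fits. Fits without 1 native, high-flow or low-flow library left 1 in a group. In those the calls of the list fell in each flow group, as did the share of all genes called. The log2 fold change of MYBL2 in stented high-flow vessels was 2.56 to 3.67 with 1 library left out.

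Of 29 further replication genes, 7 rose in stented high-flow, 5 in high-flow, 3 in low-flow and 1 in stented static vessels, and 1 fell, in stented static vessels. The shares that rose were 24.1% in stented high-flow, 17.2% in high-flow, 10.3% in low-flow and 3.45% in stented static vessels, against 10.4%, 5.94%, 5.03% and 5.54% of all genes in the same comparisons. The 1 gene that fell in stented static vessels was likewise a smaller share, 3.45%, than the 7.19% over all genes. MCM10, which helps to start the replication fork, had 8.22 and 8.82 CPM in stented static, 4.95, 17.1 and 15.9 CPM in stented high-flow, 15.9 and 6.47 CPM in high-flow and 11.9 and 5.52 CPM in low-flow libraries, against 1.63 and 1.5 CPM in native libraries. MCM10 was the gene that rose in all 4 groups, by 2.44 ± 0.66 log2 in stented static (edgeR adjusted p = 0.0358), 3.02 ± 0.65 in stented high-flow (adjusted p = 0.00738), 2.83 ± 0.67 in high-flow (adjusted p = 0.0179) and 2.48 ± 0.66 in low-flow vessels (adjusted p = 0.0338). The MCM10 call was lost in all 4 groups without native replicate 1 and without native replicate 2 (edgeR adjusted p up to 0.218). POLE, the leading-strand polymerase, rose by 3.16 ± 0.69 log2 in stented high-flow (edgeR adjusted p = 0.00816), 2.66 ± 0.71 in high-flow (adjusted p = 0.0286) and 2.53 ± 0.70 in low-flow vessels (adjusted p = 0.0395). UHRF1, which guides maintenance of DNA methylation at the fork, rose by 2.74 ± 0.52 log2 in stented high-flow (edgeR adjusted p = 0.00396), 2.36 ± 0.54 in high-flow (adjusted p = 0.0150) and 2.26 ± 0.53 in low-flow vessels (adjusted p = 0.0207). The gene that fell was RFC3, a subunit of the clamp loader, with 2.21 and 3.59 CPM in stented static libraries, against 8.14 and 8.46 CPM in native libraries (-1.52 ± 0.37, edgeR adjusted p = 0.0242). RFC3 lost its call without either native library or stented static replicate 1. The 7 genes that rose in stented high-flow vessels became 10, 5 and 4 without stented high-flow replicates 1, 2 and 3. Of all genes, 26.7%, 16.1% and 20.6% were called in either direction in these fits. Fits without 1 native, high-flow or low-flow library left 1 in a group. In those the calls of the list fell in each flow group, as did the share of all genes called.

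Of 15 further G1 genes (cyclins, kinases and E2F factors, with MYC), 2 rose and 2 fell in stented high-flow, 2 rose and 2 fell in high-flow, 1 rose and 2 fell in low-flow, and 0 rose and 1 fell in stented static vessels, where 3 were higher at an unadjusted p below 0.05 and DESeq2 called 1 higher. Of all 15348 genes tested in stented static vessels, 2154 were higher at an unadjusted p below 0.05, and DESeq2 called 1373 higher. With 15 genes, 1 or 2 calls are 6.67% or 13.3%, against 5.03% to 10.4% of all genes called higher and 7.19% to 13.9% called lower in these comparisons, so the counts say little about the list. The kinase CDK6, the partner of D-type cyclins, fell in all 4, to 15.9 and 19.7 CPM in stented static, 23.8, 23.1 and 19.6 CPM in stented high-flow, 24.5 and 33.9 CPM in high-flow and 24 and 18.3 CPM in low-flow libraries, against 48.6 and 69.4 CPM in native libraries. The log2 fold change of CDK6 was -1.73 ± 0.31 in stented static (edgeR adjusted p = 0.00569), -1.41 ± 0.27 in stented high-flow (adjusted p = 0.00408), -1.02 ± 0.30 in high-flow (adjusted p = 0.0446) and -1.48 ± 0.30 in low-flow vessels (adjusted p = 0.0117). MYC, a growth-promoting transcription factor, fell in the 3 flow groups, at -1.19 ± 0.34 log2 in stented high-flow (edgeR adjusted p = 0.0287), -1.61 ± 0.39 in high-flow (adjusted p = 0.0201) and -2.05 ± 0.40 in low-flow vessels (adjusted p = 0.00945), and was at -1.18 ± 0.39 in stented static vessels (edgeR adjusted p = 0.0702). In the other direction, cyclin D3, CCND3, had 121, 139 and 201 CPM in stented high-flow, against 49.8 and 50.9 CPM in native libraries, and rose by 1.61 ± 0.33 log2 (edgeR adjusted p = 0.00581). CCND3 also rose in high-flow vessels, by 1.27 ± 0.35 log2 (edgeR adjusted p = 0.0323). E2F8, a repressor that acts late in S phase, rose by 2.64 ± 0.61 log2 in stented high-flow (edgeR adjusted p = 0.0109), 2.34 ± 0.64 in high-flow (adjusted p = 0.0316) and 2.27 ± 0.63 in low-flow vessels (adjusted p = 0.0403). CDK6 lost its call in stented static and stented high-flow vessels without native replicate 2 (edgeR adjusted p = 0.0662 and 0.0623). In high-flow vessels the CDK6 call was lost without any 1 library (edgeR adjusted p = 0.0762 to 0.310), and in low-flow vessels without native replicate 2 or either low-flow library (edgeR adjusted p = 0.0671 to 0.123). MYC, CCND3 and E2F8 lost their calls in every group named without native replicate 1 and without native replicate 2, with edgeR adjusted p-values over the fits that lost the call of up to 0.145 for MYC in stented high-flow, 0.211 for CCND3 in high-flow and 0.209 for E2F8 in low-flow vessels.

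Of the 25 matched cell cycle inhibitors and antiproliferative genes, 6 were called higher and 4 lower in stented high-flow vessels (24% and 16%, against 10.4% and 13.9% of all genes), and 2 higher and 2 lower in high-flow vessels (8% each, against 5.94% and 8.86%). In low-flow vessels 1 was higher and 5 lower (4% and 20%, against 5.03% and 7.38% of all genes), and in stented static vessels 2 were higher and 3 lower (8% and 12%, against 5.54% and 7.19%). Several of these shares lay near those of all genes. CDKN2B (chromosome 1, 200666250 to 200770880), the CDK4 and CDK6 inhibitor p15, had 36.7 and 22.2 CPM in stented static, 16.4, 51.6 and 9.65 CPM in stented high-flow, 15.2 and 10.8 CPM in high-flow and 19.5 and 22.8 CPM in low-flow libraries, against 2.60 and 2.70 CPM in native libraries. CDKN2B rose by 3.47 ± 0.69 log2 in stented static (edgeR adjusted p = 0.0103), 3.28 ± 0.67 in stented high-flow (adjusted p = 0.00559), 2.29 ± 0.67 in high-flow (adjusted p = 0.0425) and 2.99 ± 0.68 in low-flow vessels (adjusted p = 0.0181). All 9 cultured libraries exceeded both native ones, stented static vessels included, where no gene of the set rose. Without native replicate 1 or 2 no CDKN2B call was kept, at edgeR adjusted p-values of 0.0505 to 0.0576 in stented high-flow and 0.0846 to 0.0847 in stented static vessels. In high-flow and low-flow vessels the call was lost without any 1 library. CDKN2A, its neighbour in the genome of mammals and an inhibitor of the same kinases, rose by 3.46 ± 0.94 log2 in stented static (edgeR adjusted p = 0.0358) and 3.59 ± 0.91 in stented high-flow vessels (adjusted p = 0.0158), with 2 to 95 counts per library. CDKN2A lost both calls without native replicate 1 or 2, and the one in stented static vessels without stented static replicate 1.

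Of the CDK inhibitors of the CIP/KIP family, CDKN1A (p21) had 29.8, 73.9 and 55.3 CPM in stented high-flow, against 17.0 and 16.0 CPM in native libraries, and rose by 1.68 ± 0.51 log2 (edgeR adjusted p = 0.0331). CDKN1A was not called in the other 3 groups. CDKN1B (p27) had log2 fold changes of -0.55 ± 0.46 in stented static, -0.76 ± 0.41 in stented high-flow, -0.93 ± 0.46 in high-flow and -0.46 ± 0.46 in low-flow vessels, and was not called (edgeR adjusted p = 0.201 to 0.551). CDKN1C (p57) stood at 0.28 ± 0.48 log2 in stented static, -0.27 ± 0.44 in stented high-flow, -0.28 ± 0.48 in high-flow and -0.01 ± 0.48 in low-flow vessels, also not called. TOB1 and TOB2, antiproliferative proteins of the TOB/BTG family, fell in all 4 groups. TOB2 had 175 and 183 CPM in stented static, 120, 121 and 123 CPM in stented high-flow, 114 and 101 CPM in high-flow and 171 and 253 CPM in low-flow libraries, against 448 and 441 CPM in native libraries. The TOB2 change was -1.31 ± 0.26 log2 in stented static (edgeR adjusted p = 0.00985), -1.88 ± 0.23 in stented high-flow (adjusted p = 0.000423), -2.05 ± 0.27 in high-flow (adjusted p = 0.00118) and -1.07 ± 0.26 in low-flow vessels (adjusted p = 0.0232). The TOB1 change was -1.81 ± 0.30 log2 in stented static (edgeR adjusted p = 0.00388), -0.92 ± 0.26 in stented high-flow (adjusted p = 0.0259), -1.79 ± 0.30 in high-flow (adjusted p = 0.00356) and -1.20 ± 0.29 in low-flow vessels (adjusted p = 0.0238). The growth arrest gene GADD45B fell, at -2.35 ± 0.54 log2 in stented static (edgeR adjusted p = 0.0194), -1.74 ± 0.47 in stented high-flow (adjusted p = 0.0209) and -2.45 ± 0.55 in low-flow vessels (adjusted p = 0.0164). GADD45G fell, at -3.04 ± 0.91 log2 in stented high-flow (edgeR adjusted p = 0.0328) and -3.84 ± 1.10 in low-flow vessels (adjusted p = 0.0433).

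These calls differed in how far they rested on single libraries. TOB2 kept its call without any 1 library in stented high-flow and high-flow vessels, and TOB1 in stented static and high-flow vessels. In low-flow vessels TOB1, TOB2, GADD45B and GADD45G each lost their calls without any 1 library. TOB2 in stented static vessels lost its call without either native library or stented static replicate 1. TOB1 in stented high-flow vessels kept its call only without stented high-flow replicate 2. CDKN1A, GADD45B and GADD45G in stented high-flow vessels kept theirs only without stented high-flow replicate 1, and GADD45B in stented static vessels lost its call without any 1 library.

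A relative of the TOB genes, BTG3 (chromosome 13, 182209850 to 182228626), went the other way. BTG3 had 57.5, 56.3 and 54.9 CPM in stented high-flow and 63.7 and 49.2 CPM in high-flow libraries, against 22.5 and 25.1 CPM in native libraries. It rose by 1.24 ± 0.24 log2 in stented high-flow (edgeR adjusted p = 0.00468) and 1.25 ± 0.26 in high-flow vessels (adjusted p = 0.0102), and was not called in low-flow (0.48 ± 0.26, edgeR adjusted p = 0.249) or stented static vessels (0.10 ± 0.26, edgeR adjusted p = 0.837). It was also the inhibitor that rose in stented high-flow against stented static vessels, where the stented static libraries had 22.2 and 28.7 CPM (1.14 ± 0.24, edgeR adjusted p = 0.0341). That call was lost without stented static replicate 1 or stented high-flow replicate 2 (edgeR adjusted p = 0.0972 to 0.265). Against native, the call was lost without native replicate 1 in stented high-flow vessels (edgeR adjusted p = 0.0633), and without native replicate 1, native replicate 2 or high-flow replicate 1 in high-flow vessels (edgeR adjusted p = 0.0593 to 0.0946).

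Marker genes of cell types of the vessel wall differed between groups, but several sums also differed widely between libraries of 1 group. Fibroblast markers summed to 64354 and 22796 CPM within high-flow, and endothelial markers to 996 and 396 CPM within stented static. Fewer cells of a type and less marker transcript per cell cannot be told apart here. The 8 contractile smooth muscle markers summed to 444 and 2410 CPM in stented static, 3981 to 6039 CPM in stented high-flow, 1506 and 5062 CPM in high-flow and 7503 and 7570 CPM in low-flow libraries, against 30778 and 38067 CPM in native libraries. The 8 macrophage markers summed to 2122 and 945 CPM in stented static and to 315 to 992 CPM in the other cultured libraries, against 520 and 507 CPM in native libraries. The 8 fibroblast markers summed to 11358 and 28516 CPM in stented static and to 22796 to 70188 CPM in the other cultured libraries, against 51124 and 61710 CPM in native libraries. None of these markers was at 0 in any library, and the same held for the 6 matched endothelial markers, which summed to 315 to 996 CPM in cultured libraries, against 787 and 932 CPM in native libraries.

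The 7 adipocyte markers summed to 2503 and 251 CPM in stented static and 30.1 to 277 CPM in the flow libraries, against 2989 and 1916 CPM in native libraries, with LEP or ADIPOQ at 0 in 4 cultured libraries. The 5 matched cardiomyocyte markers summed to 2.81 to 52.2 CPM in cultured libraries, against 1290 and 81.7 CPM in native libraries, with MYL2, TNNT2 or ACTC1 at 0 in 8 cultured libraries. The 4 matched erythrocyte markers summed to 0 to 0.973 CPM in cultured libraries, against 36.8 and 48.4 CPM in native libraries, and HBB was at 0 in 8 of the 9. The 7 matched lymphocyte markers, of which MS4A1 was at 0 in 10 of 11 libraries, summed to 4.82 to 9.96 CPM in cultured libraries, against 11.7 and 6.50 CPM in native libraries. In stented high-flow against stented static vessels the markers ADIPOQ, CIDEC, FABP4, LPL, PLIN1 and CD163 were called lower and ACTG2 higher. These were 5 of 7 adipocyte, 1 of 8 macrophage and 1 of 8 contractile markers, where 1.67% of all genes were called lower and 1.18% higher. The adipocyte sum was 2503 CPM in stented static replicate 1 but 251 CPM in replicate 2, against 30.1 to 97.0 CPM in stented high-flow libraries. Mitochondrially encoded genes took 3.19% to 8.65% of counts in cultured libraries, against 10.3% and 10.7% in native libraries. The part of these differences in the changes of the cell cycle genes was not tested.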

How the data were processed

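RNA of 11 porcine coronary artery libraries was purified on columns with DNase treatment from frozen vessels, per the labels' protocols. The deposited values are whole-number gene counts in 2 tables made by the authors, one with the stented and one with the unstented cultures, whose native columns are identical, and they were joined by gene identifier with 0 columns left without a sample. Trimmomatic, FastQC, DESeq2 and the Sscrofa11.1 genome are named per the submitters' processing notes. Of the aligner, the annotation release and the strand of counting, details were not given in the sources used here. Also deposited by the authors were lists of changed genes with log2 fold changes against native, used only for side-by-side values. Their list for stented high-flow vessels holds TYMS, PLK1, CCNB1 and BUB1 among 1117 genes, where 20 of the 36 were called here. Their other lists hold TYMS, PLK1 and BUB1 among 1129 genes for high-flow and TYMS among 928 for low-flow vessels. For stented static vessels none of the 36 genes is among the 553 listed.

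The joined counts went into edgeR 4.0.16 (R 4.3.3). After filterByExpr, which left 15348 genes, libraries were TMM-scaled and all 5 groups were fitted jointly with 6 residual degrees of freedom and a common dispersion of 0.126. The quasi-likelihood test was run for 7 comparisons, Benjamini-Hochberg adjusted, at a threshold of 0.05. The standard error is the log2 fold change over the square root of F. A prior count of 2 entered mean log2 CPM. The script was tested on simulated data. Replicates are libraries that share a group in the labels. The members and lists were chosen with earlier results of these data known. Named with values were, per comparison, the called members of largest change (up to 5 mitosis, 5 replication and 3 G1/S genes), the 3 of smallest p where none was called, CCND1, TYMS, CDK1, TOP2A and CCNB1, up to 3 called genes of each other pathway list, and CDKN1A, CDKN1B, CDKN1C and CDKN2B against native. Other genes given with values fall outside this rule and were not fixed in advance. Among them are PLK1 and BUB1 in low-flow vessels and AURKB in stented high-flow vessels, against native. KIF20A and CENPE in stented high-flow against stented static vessels are others. Counting error is covered by depth alone, while the spread between libraries sets the tests. The number 25 stands in the labels of both native replicate 2 and stented high-flow replicate 1, with no word on a shared animal. Alternatives were DESeq2 1.42.0, RLE size factors, a minimum of 10 counts in every library or no filter, the replicate number as a block, fits of the compared groups or of 1 count table alone, and leaving out each library of a comparison in turn.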

Additional observations from a re-analysis of the deposited data

Results flagged for a closer look

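Stented high-flow and stented static vessels differed directly, by the quasi-likelihood test of edgeR (Benjamini-Hochberg adjusted), in 1 gene of the set and in 1 of the other cell cycle genes, so that their changes against native differed as well. RRM1, a ribonucleotide reductase subunit, was higher in stented high-flow vessels by 1.03 log2 (74.5 ± 5.97 CPM, SD, n = 3, against 36.5 ± 5.99 CPM in stented static vessels, SD, n = 2; edgeR adjusted p = 0.0485), in 3 of 3 against 2 of 2 libraries. BTG3, an antiproliferative gene, was higher by 1.14 log2 (56.2 ± 1.31 CPM, SD, n = 3, against 25.5 ± 4.60 CPM, SD, n = 2; edgeR adjusted p = 0.0341), again without overlap. Both calls depended on single libraries, as given above. The 1 gene of 36 is 2.78%, while 2.85% of all genes tested were called in either direction and 1.18% higher. RRM1 was not called with RLE size factors, at least 10 counts in every library, the replicate block, only the groups compared or 1 count table. The d suffix of the labels also differs between libraries of these groups, so time and flow may be mixed in part.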

How the results depend on the processing

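Deviations of same-numbered libraries from their group means correlated at -0.329 to 0.183. Native replicate 2 and stented high-flow replicate 1, whose labels share a number, were not among these pairs. In groups of 2 libraries the deviations mirror each other, so libraries of unlike number could still share an animal. The replicate number itself gave no sign of pairing the libraries. With the number as a replicate block, which also absorbs stented high-flow replicate 3, 6 of the 36 genes were called in stented high-flow against native and 0 against stented static, and TOP2A in stented high-flow against high-flow moved to -0.32 log2. With only 1 count table the counts against native were 0 in stented static, 11 in stented high-flow, 18 in high-flow and 11 in low-flow vessels, and 0 in stented high-flow against stented static. With only the groups compared they were 17 in high-flow, 16 in low-flow and 0 in stented high-flow against stented static. DESeq2 called 11 in high-flow, 7 in low-flow and 12 in stented high-flow against stented static, and without a filter the counts were 11, 7 and 9. RLE size factors or at least 10 counts in every library left 0 in stented high-flow against stented static. The shares of all genes called moved too: in high-flow, low-flow and stented high-flow against stented static they were 14.8%, 12.4% and 2.85% in the joint fit, 21.4%, 33.5% and 0.222% with only the groups compared, 21.6%, 18.9% and 8.91% by DESeq2, and 13.1%, 11% and 4.78% without a filter. With 1 count table they were 8.19% in stented static, 19.8% in stented high-flow, 26% in high-flow, 22.7% in low-flow and 1.06% in stented high-flow against stented static. With the replicate block they were 16.2% in stented high-flow against native and 1.21% against stented static. Why the counts moved was not tested. In low-flow against native, CDKN1C, near 0 throughout, was at 0.012 without a filter, 0.0041 with the replicate block, 0.0075 with only the groups compared and 0.0012 with 1 count table.

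With 1 library left out, the counts ranged from 0 to 1 in stented static, 2 to 24 in stented high-flow, 0 to 2 in high-flow, 0 to 0 in low-flow and 0 to 5 in stented high-flow against stented static. In each comparison with native, the share of all genes called also fell in every fit that left 1 library in a group. In stented high-flow against stented static that share was 2.78%, 1.14% and 2.2% without stented high-flow replicates 1, 2 and 3. The mitosis minus replication gap ranged from -1.10 to 0.38 in stented static, 0.23 to 0.90 in stented high-flow, 0.53 to 1.07 in high-flow, 0.32 to 0.93 in low-flow and 0.24 to 1.39 log2 in stented high-flow against stented static. Directions of uncalled genes turned over these ranges (log2): in stented static against native, CCNB1 -0.23 to 1.80, CDK1 -0.83 to 1.19, TOP2A -1.05 to 0.83 and CDKN1C -0.16 to 0.63; in other groups against native, CDKN1C -0.86 to 0.053 (stented high-flow) and -0.30 to 0.25 (low-flow), and CDKN1A -0.78 to 0.45 (high-flow); in low-flow against high-flow, CCNB1 -1.35 to 0.73, TOP2A -1.04 to 0.53 and TYMS -0.88 to 0.89; in stented high-flow against high-flow, CCNB1 -0.14 to 1.72, CCND1 -0.35 to 0.52, CDK1 -0.43 to 0.39, TOP2A -0.38 to 0.90 and CENPE -1.04 to 0.013.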
